A study of Mus musculus with 15 samples.

Results

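The response shared by all 4 FXRα isoforms was measured in primary mouse hepatocytes as the mean of 4 isoform groups against a GFP control group. All 15 of the 15 arrays of the study entered it: 12 isoform arrays, 3 each for FXRα1, FXRα2, FXRα3 and FXRα4, and 3 GFP arrays. The hepatocytes came from male C57BL/6J mice, were purified on percoll after collagenase perfusion, and were cultured on collagen in high-glucose medium with dexamethasone and insulin. Each isoform group received an adenovirus for 1 human FXR isoform, and these viruses also made GFP from a CMV promoter of their own. The control group received a virus that made GFP alone. All 5 groups were transduced overnight, then kept in medium without dexamethasone and insulin, and harvested 36 h after transduction. The labels name no FXR ligand and give no virus dose. The design holds no virus with an unrelated protein, so a response to FXR and a response to any virus that makes a second protein cannot be told apart. Total RNA was hybridised to Affymetrix mouse gene arrays, and the precision is limited by their number. No label states that the samples of a group came from different mice or cultures, and each p-value measures only their spread, which may be technical.

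FXR, encoded by Nr1h4, is the nuclear receptor for bile acids. It pairs with RXR on inverted repeats of the hexamer AGGTCA spaced by 1 base (IR-1), and in hepatocytes it is known for raising bile salt export through Abcb11 and for lowering bile acid synthesis through Nr0b2. FXRα1 and FXRα3 carry the MYTG insert beside the DNA-binding domain, and FXRα3 and FXRα4 have the longer N-terminus. The genes described here are those that moved in 1 direction and by similar amounts with all 4, apart from these features.

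Upstream sequences are shown for Abcb11, a gene with a well-known FXR site, and for the genes of the shared response that came nearest to the IR-1 consensus AGGTCANTGACCT. They are the 250 bases before the start, or a stretch around the match, from RefSeq on GRCm38.p6, read 5′ to 3′ on the strand of the gene, with the IR-1 match in capitals. Abcb11, the bile salt export pump gene, lies on the minus strand of chromosome 2 (chr2:69342617-69342866). Its match at chr2:69342667-69342679 has 1 mismatch and lies 51 to 63 bases upstream. Abcb1a (chr5:8566841-8567090, plus strand) rose with each of the 4 isoforms, and its nearest stretch has 5 mismatches, so no capitals are set.
Abcb11: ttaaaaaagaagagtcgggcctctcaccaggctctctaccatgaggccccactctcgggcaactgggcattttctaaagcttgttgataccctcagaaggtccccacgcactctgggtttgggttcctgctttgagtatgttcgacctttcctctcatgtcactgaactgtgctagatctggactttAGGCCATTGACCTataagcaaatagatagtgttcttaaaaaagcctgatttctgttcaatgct
Abcb1a: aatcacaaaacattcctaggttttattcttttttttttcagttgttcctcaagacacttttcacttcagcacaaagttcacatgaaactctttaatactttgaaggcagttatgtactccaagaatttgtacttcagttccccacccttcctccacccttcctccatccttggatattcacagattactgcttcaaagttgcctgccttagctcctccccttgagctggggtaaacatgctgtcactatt
Itih3, chr14:30923611-30923623, minus strand: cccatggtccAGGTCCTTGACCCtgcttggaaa
Creb3l2, chr6:37442200-37442212, minus strand: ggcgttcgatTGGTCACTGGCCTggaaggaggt
Haao, chr17:83846843-83846855, minus strand: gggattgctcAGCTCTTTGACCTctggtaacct
Ncoa7, chr10:30656084-30656096, minus strand: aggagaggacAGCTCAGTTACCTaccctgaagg
Yif1b, chr7:29238192-29238204, plus strand: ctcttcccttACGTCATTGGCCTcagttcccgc

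The last 5 are genes that met the rule for even changes, defined with the counts of genes, and whose upstream window held the consensus with 2 mismatches. Itih3, Creb3l2, Haao and Ncoa7 were higher with FXR, and Yif1b was lower. RefSeq windows were at hand for 270 of the 336 genes of this kind. Searched on both strands with up to 2 mismatches, the consensus was in 4 of the 184 windows of the higher genes (2.17%), in 1 of the 184 windows of the lower genes (0.543%) and in 175 of the 18155 windows of all genes measured (0.964%). With up to 1 mismatch it was in 0 windows of either group and in 14 of all windows (0.0771%). The single hexamer AGGTCA, which overlaps the consensus, was in 12% of the windows of higher genes, 13.6% of those of lower genes and 12.5% of all. The antioxidant element TGACNNNGC was in 10.3%, 10.9% and 10.9%. These counts describe letters in 250 bases only.

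Values are log2 intensities, so a difference of 1 is a 2-fold difference. A gene is said to have risen or fallen when limma's adjusted p, by the Benjamini-Hochberg method over 18820 genes, was under 0.05 for the mean of the 4 isoforms against GFP. By that test 2819 genes rose and 2237 fell, which is 15% and 11.9% of the genes, or 26.9% together. Most changes were small: 162 genes rose and 16 fell by at least 2-fold. The mean alone does not show that a gene responds to every isoform, since a large change with some isoforms can make up for none with the others. Genes were therefore also asked to pass with each isoform against GFP in 1 direction, which 851 did (4.52% of genes), 536 higher (2.85%) and 315 lower (1.67%). Those whose smallest of the 4 log2 fold changes was at least 0.5 of the largest are called even here. There were 336 even genes (1.79%), 187 higher (0.994%) and 149 lower (0.792%). The 4 comparisons share the GFP arrays, so passing in several is not independent evidence, and evenness is the rule that chose these genes, not a finding. Counts for gene lists are set beside these shares of all genes, 15% higher, 11.9% lower and 1.79% even. By them 0 or 1 even gene in a list of the sizes used here is near the share of all genes. All genes include many dim ones, however. When only the 9410 brighter genes were tested, 4633 of them were called and 329 were even. The FXR targets, for example, averaged 8.05 to 8.07 in the GFP arrays, where array medians were 4.92 to 5.01. A share called above 26.9% in a bright list is therefore not evidence of enrichment.

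The even genes were 6.65% of the 5056 genes called. Their median log2 change was 0.53 for the higher and −0.45 for the lower, beside −0.016 over all genes. The 12 isoform values did not overlap the 3 GFP values for 186 of the 187 higher and 145 of the 149 lower, against 7.74% of all genes, a property that the rule favours. At least 2-fold changes were seen in 21 of the higher and 8 of the lower even genes. Small changes depended on the centring chosen. With median centring of the arrays, the median change over all genes went from −0.016 to −0.16. The share of called genes that were higher moved from 55.8% to 17.4%. That median was −0.013 with quantile normalization and −0.027 with centring on the 75th percentile. Array medians over all probe sets, 4.92 to 5.01, differ by less than the shift under median centring, whose source was not tested. All 336 were still called in the same direction with quantile normalization or centring on the 75th percentile, and 317 with median centring, where 1 changed sign.

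**Figure D1:**
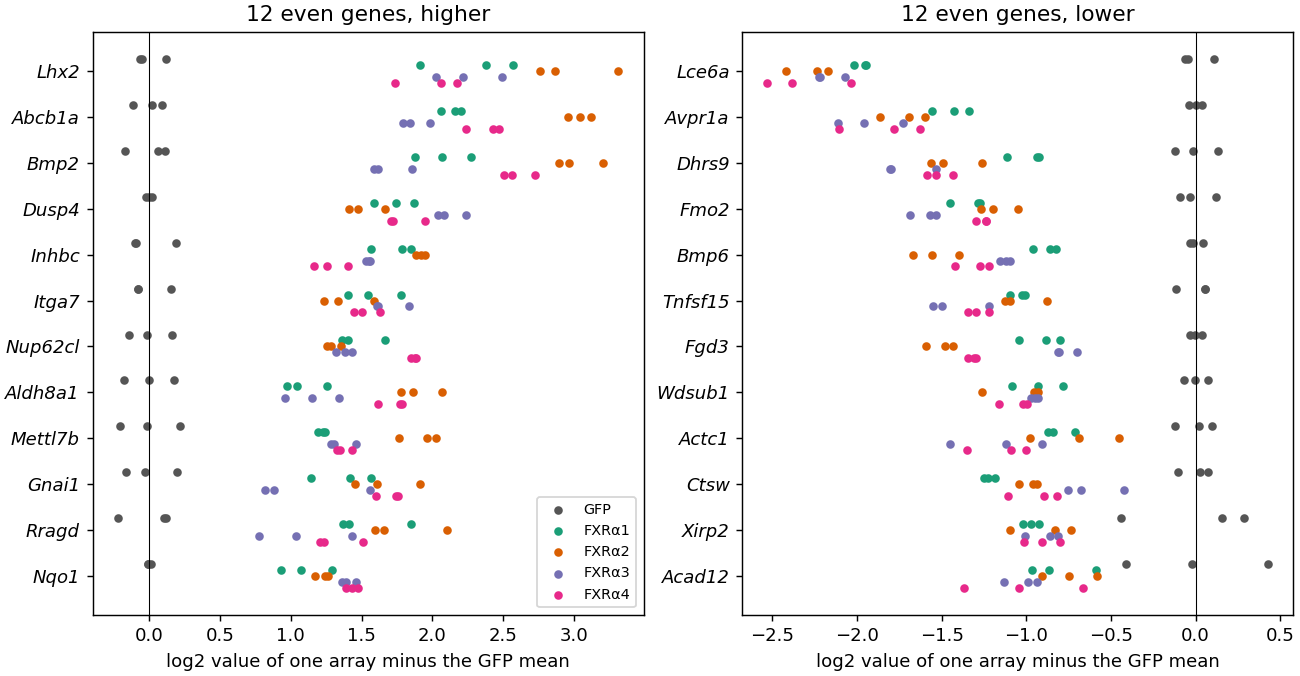
Each point is 1 array's log2 value minus the mean of the 3 GFP arrays, for the 12 even genes with the largest rise (left) and the 12 with the largest fall (right). Colours mark GFP and the 4 isoforms. The genes were chosen so that isoform and GFP points do not overlap. Changes run from Lhx2 (common log2 change 2.38) to Acad12 (−0.90) in size, and the isoform colours lie farther apart for Bmp2 than for Wdsub1.

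The transporters gave one of the largest even rises. Abcb1a, the P-glycoprotein gene whose product exports drugs and other lipophilic compounds across the canalicular membrane, had log2 values of 6.98, 6.85 and 7.05 in the GFP arrays and between 8.75 and 10.1 (median 9.18) in the 12 isoform arrays. Every isoform array stood above every GFP array, but such a gap was a condition for all even genes named by size. The common log2 change was 2.36 ± 0.057 (SE; limma adjusted p = 7.4e-18), or 5.12-fold, with 2.14 for FXRα1, 3.04 for FXRα2, 1.87 for FXRα3 and 2.38 for FXRα4. Abcb1b, a near-identical copy whose signal the probes may share in part, rose by 0.33. Atp8b1, a phospholipid flippase of the canalicular membrane named here after its values were seen, was also even at 0.58. Of the 22 measured bile and organic ion transporter genes, 10 rose and 4 fell, 2 of them evenly. Those that fell were the sterol transporter genes Abcg5 (−0.37) and Abcg8 (−0.32), the efflux pump gene Abcg2 (−0.17) and Abcc4 (−0.51), a pump for conjugates and nucleotides, and without GFP replicate 1 only 1 gene fell. The list's median was 0.14, and −0.0051 with median centring.

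Ligands of the BMP and TGF-beta family moved in both directions. Bmp2 stood at 5.22, 5.18 and 4.94 with GFP and between 6.70 and 8.32 (median 7.50) with the isoforms. It rose by 2.34 ± 0.088 (adjusted p = 1.76e-14 in limma), with 2.07, 3.02, 1.69 and 2.59 for FXRα1 to FXRα4 in order. Bmp6, the ligand known in liver for inducing hepcidin, went the other way, from 9.81, 9.75 and 9.74 with GFP to between 8.10 and 8.94 (median 8.58). Its common change was −1.21 ± 0.054 (limma adjusted p = 1.99e-13).

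Inhbc, which encodes an activin subunit made mainly by hepatocytes, had values of 5.19, 5.47 and 5.19 with GFP and between 6.45 and 7.23 (median 6.85) with FXR. It rose by 1.62 ± 0.077 (limma adjusted p = 6.32e-13). The related subunit gene Inhba fell evenly by 0.56 on the log2 scale, with values between −0.63 and −0.49 for the 4 isoforms. Id1, a transcriptional target of BMP signalling, rose evenly by 0.51. Inhba and Id1 were picked out after their values were seen. Over the whole list 15 of 28 measured genes rose and 2 fell, and 5 were even. Its median was 0.27, and 0.13 with median centring, with which 7 genes fell. Bmp7 rose as well (1.98) but unevenly, from 1.26 with FXRα3 to 2.92 with FXRα1, and a dimmer probe set of Bmp7 gave 0.014 (limma adjusted p = 0.924).

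The largest even rise was in Lhx2, a LIM homeobox transcription factor gene. It stood at 5.81, 5.80 and 5.98 with GFP and between 7.60 and 9.18 (median 8.16) with FXR, a change of 2.38 ± 0.12 (limma adjusted p = 1.62e-12). The isoforms lay at 2.29, 2.98, 2.24 and 1.99 in order. Prox1, a transcription factor of hepatocyte development that acts as a corepressor of nuclear receptors, rose by nearly the same amount with each isoform. It had values of 7.30, 7.09 and 7.16 with GFP and between 7.95 and 8.34 (median 8.16) with FXR. The 4 changes of Prox1 were 0.97, 0.99, 0.88 and 1.03, and the F-test for a difference among isoforms did not pass (limma adjusted p = 0.599), while the insert difference had a 95% interval from −0.059 to 0.22. Of 20 measured hepatocyte transcription factor genes, 7 rose and 2 fell. The master regulator Hnf4a rose with every isoform but less evenly, by 1.09, 1.54, 0.67 and 0.86. Its values were 9.01, 9.10 and 9.16 with GFP and between 9.73 and 10.7 with FXR.

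Dusp4, a nuclear phosphatase that switches off MAP kinases, rose from 6.24, 6.28 and 6.26 with GFP to between 7.67 and 8.5 (median 7.996), a change of 1.79 ± 0.069 (limma adjusted p = 2.49e-14). It was the one gene among the 5 largest even rises whose largest value came with FXRα3 (2.12). Dusp16 fell evenly (−0.41), as did Dusp8 (−0.34), which was picked out after its values were seen. Both encode phosphatases with a preference for JNK and p38. In the list of ERK feedback genes 9 of 21 rose and 8 fell, around a median of 0.066.

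Gnai1, an inhibitory G protein subunit gene, rose by 1.45 ± 0.13, and Rragd, a Rag GTPase gene of the amino acid branch of mTORC1 signalling, by 1.43 ± 0.13. Itga7, a laminin-binding integrin gene, rose by 1.54 ± 0.088 from 5.65, 5.42 and 5.42 with GFP to between 6.73 and 7.33 with FXR. The F-test for isoform differences did not pass for Itga7 (limma adjusted p = 0.158). Its insert difference was −0.17 (95% interval −0.34 to −0.011) and its N-terminus difference 0.13 (−0.036 to 0.29), so differences of about 0.3 remain possible. Nup62cl, a nucleoporin-like gene, rose by 1.51 ± 0.066.

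Enzymes were found among the even genes in both directions. Nqo1, the quinone reductase that serves as the usual readout of NRF2, had GFP values of 6.97, 6.99 and 6.97 and isoform values between 7.90 and 8.45 (median 8.30). Its common change was 1.29 ± 0.059 (limma adjusted p = 3.23e-13), from 1.1 with FXRα1 to 1.43 with FXRα4. Of the 22 measured NRF2 and glutathione genes 8 rose and 5 fell (59.1% called, against 26.9% of all genes), and Nqo1 was the even one. Cbr3, a carbonyl reductase, stood at 2.01 with FXRα1 and −0.39 with FXRα2, and Gsta4, a glutathione transferase, at 0.94 with FXRα1 and −0.89 with FXRα4. Cbr3 and Gsta4 were picked out after their values were seen.

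Aldh8a1, an aldehyde dehydrogenase of retinal and tryptophan metabolism, rose by 1.47 ± 0.086, and the methyltransferase gene Mettl7b by 1.46 ± 0.064. Both passed the F-test, with changes that were larger without the insert by 0.69 (95% interval 0.53 to 0.85) for Aldh8a1 and 0.36 (0.24 to 0.48) for Mettl7b. Cps1, the entry enzyme of the urea cycle, rose evenly by a small amount, 0.31 ± 0.046 (limma adjusted p = 1.6e-05), with values between 0.27 and 0.35. Glud1, glutamate dehydrogenase, which supplies its ammonia, fell by 0.21 on the log2 scale with all 4 values between −0.23 and −0.20. In the amino acid list 16 of 34 rose and 5 fell (3 without GFP replicate 1), around a median of 0.16 that was 0.012 with median centring.

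Pklr, the liver pyruvate kinase of glycolysis, fell evenly. Its values were 11.5, 11.6 and 11.6 with GFP and between 10.7 and 11.1 (median 10.9) with FXR, with changes of −0.72, −0.65, −0.70 and −0.61. The common change was −0.67 ± 0.050 (limma adjusted p = 7.53e-10), and the isoform F-test did not pass (adjusted p = 0.408). Fdps, a synthase of the sterol pathway, fell evenly by 0.34 on the log2 scale and Insig1, the retention protein of SREBP, by 0.30. These were the even ones of 20 cholesterol genes, of which 5 rose (3 without GFP replicate 2) and 5 fell (3 without GFP replicate 1).

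The even falls were led by Lce6a, a gene of the cornified envelope family. It stood at 6.97, 6.94 and 7.12 with GFP and between 4.48 and 5.06 (median 4.81) with FXR. The common change was −2.18 ± 0.094 (limma adjusted p = 1.43e-13), a 4.54-fold lower level, with −1.97, −2.27, −2.17 and −2.32 in order of the isoforms. The F-test for isoform differences did not pass (adjusted p = 0.0789). The isoform values of Lce6a lay near the array medians of 4.92 to 5.01, where a floor may hide such differences, which was not tested.

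Avpr1a, the vasopressin receptor of hepatocytes, followed. Its values were 9.74, 9.78 and 9.81 with GFP and between 7.67 and 8.44 (median 8.07) with FXR. The change was −1.73 ± 0.082 (limma adjusted p = 5.47e-13), from −1.44 with FXRα1 to −1.93 with FXRα3. Among 24 measured hormone receptor genes 9 rose and 7 fell (66.7% called, against 26.9% of all genes), and Avpr1a was the even one. Igf1r, the IGF receptor, rose by 1.31 in the mean, with 0.20 for FXRα1 and 2.76 for FXRα4.

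Dhrs9, a retinol dehydrogenase, fell by 1.41 on the log2 scale, and Fmo2, a flavin monooxygenase, fell by 1.34. Tnfsf15, a ligand of the TNF family, fell by 1.20, and Fgd3, a guanine nucleotide exchange factor gene, fell by 1.12. With FXR, Fmo2 read between 3.62 and 4.26 and Tnfsf15 between 3.78 and 4.46, below the array medians of 4.92 to 5.01. A floor may narrow differences among isoforms at such levels, which was not tested. Wdsub1, a WD repeat protein gene, varied little between isoforms. It had values of 7.05, 6.99 and 7.13 with GFP and between 5.80 and 6.27 with FXR, with changes of −0.93, −1.05, −0.95 and −1.06 (limma F-test adjusted p = 0.632). Xirp2, an actin-binding protein gene of striated muscle, was as even (−0.97, −0.89, −0.89 and −0.91), but its GFP arrays spread from 4.40 to 5.13 around isoform values of 3.75 to 4.11. Actc1, the cardiac actin gene, fell by 0.96, the cathepsin gene Ctsw by 0.94, and Acad12, of the acyl-CoA dehydrogenase family, by 0.90. The GFP values of Acad12 ranged from 4.97 to 5.81.

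Gbp2, a guanylate-binding protein induced by interferon, was the 1 even gene of 26 interferon response genes. Its values were 6.36, 5.91 and 5.78 with GFP, the first standing above the others, and between 4.92 and 5.68 with FXR. It fell by 0.83 ± 0.12 (limma adjusted p = 1.2e-05). In the list 8 genes fell and 2 rose around a median of −0.15. Without GFP replicate 1, 3 fell and the median was −0.051. The mean of the list lay between 5.86 and 6.35 in the GFP arrays and between 5.68 and 6.18 in the isoform arrays.

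**Figure D2:**
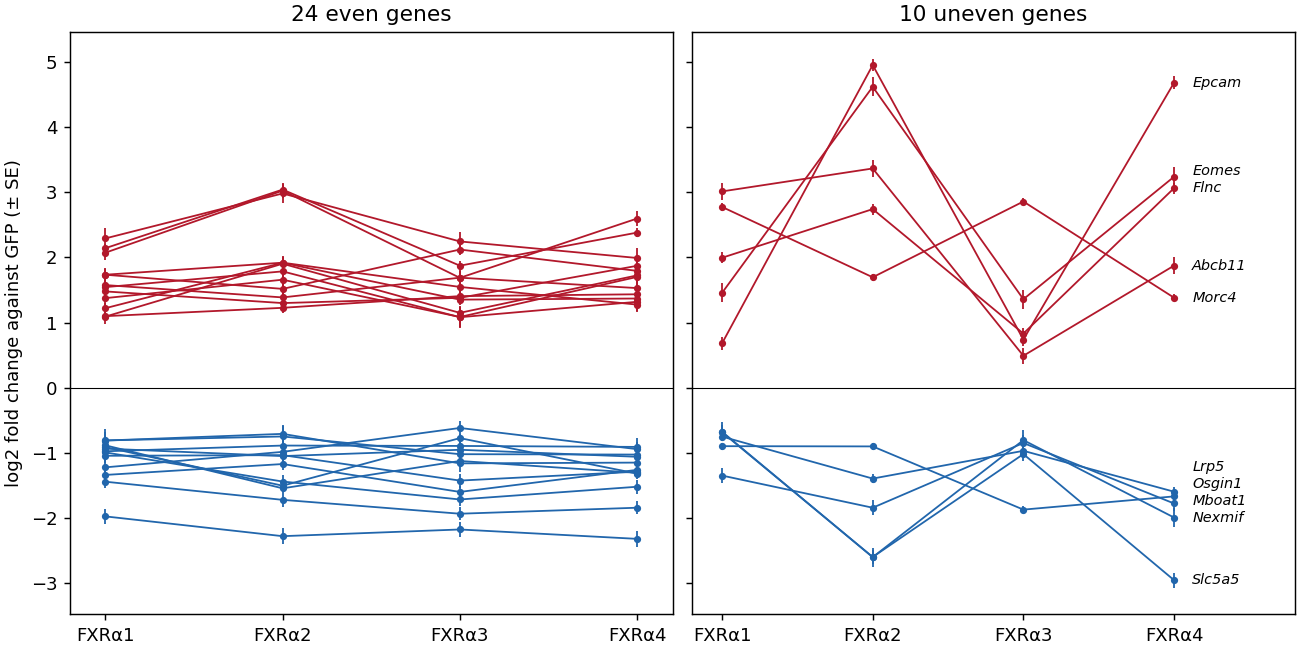
Lines join the log2 fold changes against GFP (± SE, from limma, 3 arrays per group) with each of the 4 isoforms for the 24 even genes (left) and for 10 genes with large common changes that are not even (right). Red marks higher and blue lower genes. The even genes keep to a band by their rule, while Epcam runs from 0.68 with FXRα1 to 4.95 with FXRα2.

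Even did not mean identical. The limma F-test on the insert, the N-terminus and their interaction passed for 156 of the 336 even genes and not for 180. It passed for 44.7% of all genes tested. Of the 24 even genes named by size, Itga7, Lce6a, Wdsub1, Xirp2 and Acad12 did not pass. With FXR, Lce6a, Xirp2 and Acad12 read near or below the array medians. A difference among isoforms could still be up to the bounds of their intervals: for the insert, coded as the isoforms without it minus those with it, −0.40 to −0.049 in Lce6a, −0.26 to 0.041 in Wdsub1, −0.17 to 0.24 in Xirp2 and −0.23 to 0.29 in Acad12. The remaining 19 passed, and Bmp2 had the widest spread among them, 1.34 between FXRα2 and FXRα3. Its insert difference was 0.93 (95% interval 0.77 to 1.09) and its N-terminus difference, long minus short, −0.41 (−0.57 to −0.24).

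Genes on either side of the limit of 0.5 had like values. Pan2 (0.35 to 0.69 over the isoforms), Igsf5 (0.22 to 0.44) and Epdr1 (0.33 to 0.66) lay just inside. Ppp1r16a (0.35 to 0.70), Napa (0.15 to 0.30) and Cdhr5 (0.39 to 0.78) lay just outside. At a limit of 0.67 there were 106 even genes and at 0.33 there were 656.

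The 10 genes set beside them as uneven were called with large common changes of which a few isoforms supplied the most. Epcam, the epithelial adhesion gene, stood at 5.05, 4.91 and 5.10 with GFP. With FXRα1 and FXRα3 its group means were 5.70 and 5.76, and with FXRα2 and FXRα4, which lack the insert, 9.97 and 9.70. The common change of 2.76 ± 0.078 lay between those pairs and was the size seen with no isoform. Eomes, a T-box factor gene (2.67), and Flnc, the filamin gene (2.16), also had the larger changes for FXRα2 and FXRα4. For Flnc the isoforms with the insert differed as well, with group means of 8.54 for FXRα1 and 7.37 for FXRα3. Morc4 had larger changes with FXRα1 and FXRα3, 2.77 and 2.86, than with FXRα2 and FXRα4, 1.69 and 1.38. The insert difference was 4.10 (95% interval 3.96 to 4.25) for Epcam and −1.28 (−1.36 to −1.19) for Morc4.

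Of the lower genes, Slc5a5, the sodium iodide symporter gene, had a change of −0.68 with FXRα1 and −2.95 with FXRα4. Nexmif, a gene of neurite outgrowth, and Mboat1, a lysophospholipid acyltransferase gene, had their largest changes with FXRα2, −2.60 and −1.84. Lrp5, a Wnt coreceptor gene, had an insert difference of −0.64 (95% interval −0.74 to −0.53). Among the 515 genes called with every isoform that were not even, 297 had larger changes with both FXRα2 and FXRα4 than with either FXRα1 or FXRα3, and 40 had the opposite.

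**Figure D3:**
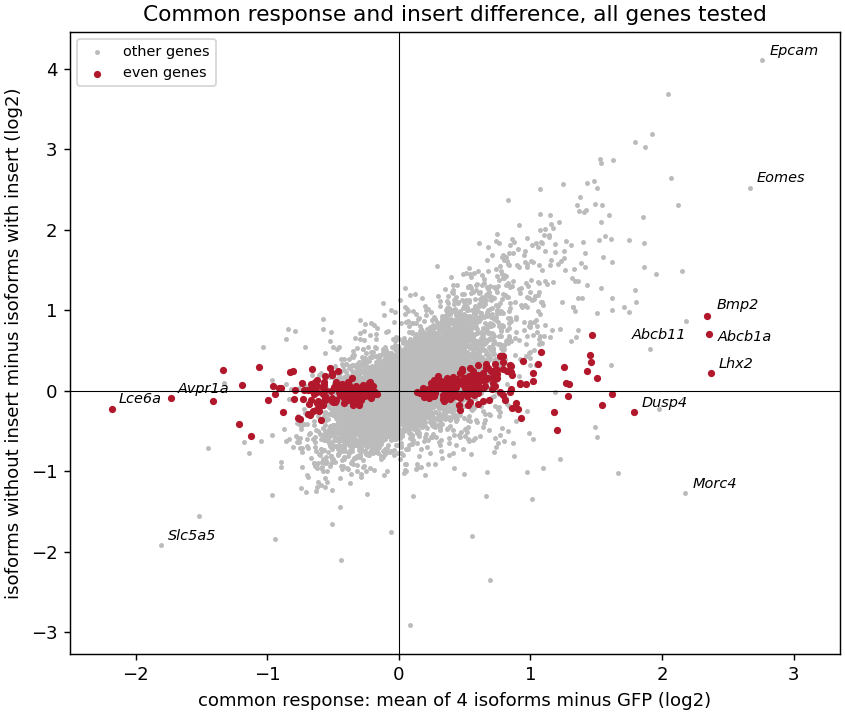
Each point is 1 of the 18820 genes, placed by its common log2 change (x axis) and by the log2 difference of the isoforms without the insert minus those with it (y axis). Red marks the 336 even genes. Bmp2 (0.93) and Abcb1a (0.70) stand highest among the labelled even genes, while Epcam reaches 4.10 and Morc4 −1.28.

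Of the 24 measured FXR target genes 11 rose and 2 fell, 54.2% against 26.9% of all genes, which include dim ones. Of the 9410 brighter genes tested alone, 4633 were called. Among the targets 1 gene was even, where 1.79% of all genes were. That gene was Apoc2, the cofactor of lipoprotein lipase. It had values of 8.75, 8.81 and 8.75 with GFP and between 9.20 and 9.84 (median 9.45) with FXR, and rose by 0.73 ± 0.053 (limma adjusted p = 4.92e-10), with 0.54, 0.93, 0.60 and 0.87 in order. The median of the list was 0.13, and −0.0098 with median centring.

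Abcb11, whose upstream window held the IR-1 match shown above, had the largest rise among the targets and differed between the short and long isoforms. It stood at 5.27, 5.04 and 5.21 with GFP. In the FXRα1 arrays it was 8.27, 7.88 and 8.39, in the FXRα2 arrays 8.46, 8.41 and 8.73, in the FXRα3 arrays 5.53, 5.51 and 5.95, and in the FXRα4 arrays 7.08, 7.03 and 7.03. FXRα3 stood only just above GFP, and FXRα1 and FXRα2 furthest. The common change was 2.18 ± 0.10 (limma adjusted p = 3.26e-13), and the long isoforms were lower than the short ones by a difference of −2.004 (95% interval −2.19 to −1.82).

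Pdk4, the kinase that inactivates pyruvate dehydrogenase, rose by 1.35 ± 0.091 with changes from 0.83 to 2.18. Slc51b, a subunit of the basolateral bile acid exporter, rose by 0.56 ± 0.12, and Abcb4, the phospholipid exporter of bile, by 0.52 ± 0.053. Slc51b stood at 3.93, 4.50 and 4.28 with GFP, below the array medians, and between 4.49 and 5.31 with FXR, so the groups overlapped. Smaller rises were seen for the fibrinogen genes Fgg (0.37) and Fga (0.33), the VLDL receptor gene Vldlr (0.35), Cyp3a11 (0.31), the bile acid ligase gene Slc27a5 (0.30) and the kininogen gene Kng1 (0.29). Fga stood at −0.12 with both FXRα1 and FXRα3, and Cyp3a11 belongs to a family of near-identical genes. Osgin1, which encodes a growth inhibitor induced by oxidative stress, fell with every isoform, by 1.33 on the log2 scale in the mean, and the partner of NRF2 encoded by Mafg fell by 0.32.

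Several defining targets did not pass. Nr0b2, the corepressor SHP, stood at 4.75, 4.60 and 4.61 with GFP and between 4.14 and 5.34 (median 4.48) with FXR, so the groups overlapped (common change −0.12 ± 0.099, limma adjusted p = 0.469). That mean joins opposite shifts. The group means were 4.65 with GFP and 4.64, 5.05, 4.19 and 4.27 with FXRα1 to FXRα4. All FXRα2 arrays lay above the GFP arrays, and all FXRα3 and FXRα4 arrays lay below them. These levels are near the array medians or lower. Cyp7a1, the rate-limiting enzyme of bile acid synthesis, had values of 3.13, 3.28 and 3.23 with GFP and between 2.99 and 3.28 with FXR (limma adjusted p = 0.455). With GFP it already lay below the array medians of 4.92 to 5.01 and below the lymphocyte and neutrophil marker means of 3.57 to 3.66. A fall could therefore hardly have been seen. Cyp8b1, the sterol 12α-hydroxylase, instead rose by 0.82 ± 0.087 (limma adjusted p = 1.56e-07), though it stood at 0.062 with FXRα4. Nr1h4 was read on the mouse transcript, which does not check the human transgene, and stood at 6.94, 6.94 and 7.03 with GFP and between 6.90 and 7.42 with FXR (limma adjusted p = 0.0781). Its partner Rxra did not pass either (adjusted p = 0.486 in limma). Of 19 genes for FXR, RXR and coregulators 4 rose and 2 fell, and the coactivator gene Ncoa2 was even at 0.29.

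**Figure D4:**
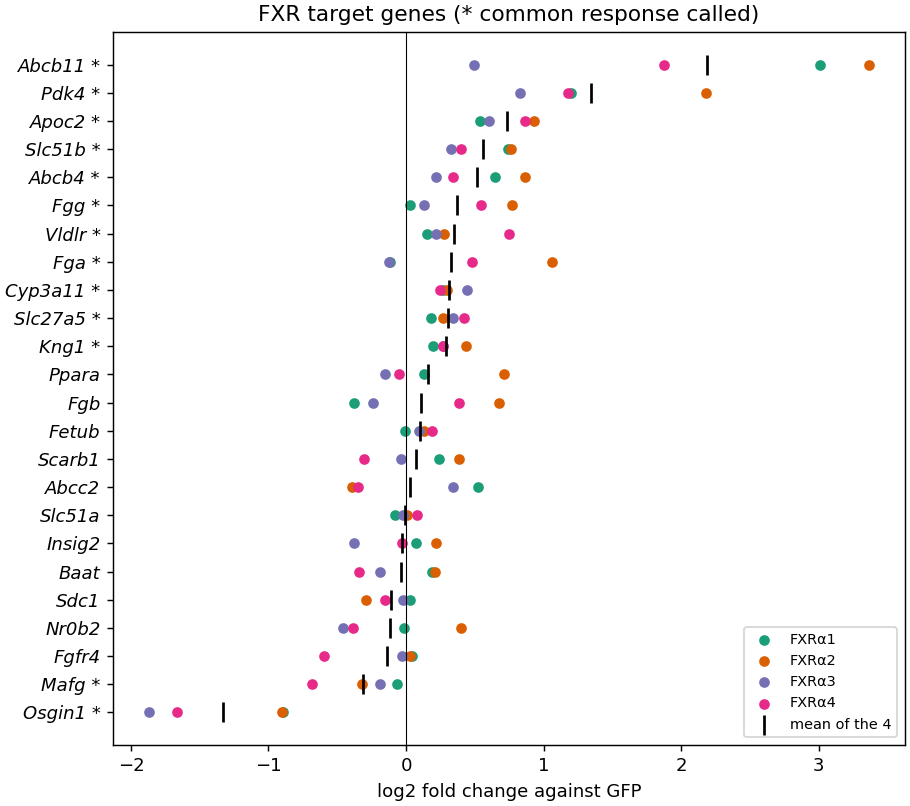
Points give the log2 fold change against GFP with each isoform for the 24 measured FXR target genes, and a bar the mean of the 4. An asterisk marks a common change with an adjusted p under 0.05. Abcb11 spans 0.49 with FXRα3 to 3.36 with FXRα2, whereas Apoc2 stays between 0.54 and 0.93.

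Among lists for other pathways, 16 of 27 cell cycle genes rose and 3 fell, 70.4% called against 26.9% of all genes. Of these 0 were even, near the 1.79% of all genes. Cdc20, an activator of mitotic exit, rose by 1.42 in the mean, from 0.13 with FXRα1 to 2.90 with FXRα4, and Rrm2, a ribonucleotide reductase subunit gene, by 1.42, from 0.39 to 2.87. Rbl1, a pocket protein gene, fell by 0.94, with values near 0 for FXRα1 (−0.014) and FXRα3 (−0.030). A dimmer Rbl1 probe set gave 0.27 (limma adjusted p = 0.0545), in the other direction.

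In the lipid droplet list 11 of 23 rose and 3 fell (60.9% called). Cidec, a lipid droplet fusion protein, rose by 1.93, from 0.29 with FXRα3 to 3.73 with FXRα2. Of 24 fatty acid and triglyceride synthesis genes 5 rose and 5 fell, and of 28 genes for fatty acid oxidation and ketone bodies 7 rose and 5 fell. That is 41.7% and 42.9% called against 26.9% of all genes. Both lists are bright, and both shares lie below that of the 9410 brighter genes, of which 4633 were called. Crat, carnitine acetyltransferase, fell with every isoform (−0.51 to −1.04).

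The apolipoprotein list had 13 risers of 23, with 2 genes that fell, and the acute phase list 13 of 24 with 1. Itih3, an inter-alpha inhibitor heavy chain gene whose upstream match is shown above, was the even gene of the acute phase list. It had values of 10.8, 10.9 and 10.8 with GFP and between 11.1 and 11.3 with FXR, and rose by 0.39, 0.35, 0.35 and 0.34 with the isoforms in order. Orm3, an orosomucoid gene, of a family of near-identical copies, had changes from 0.21 with FXRα1 to 3.25 with FXRα2. Among 31 complement and coagulation genes 13 rose and 4 fell (2 without GFP replicate 1), and the complement protease gene C1s1 fell evenly by 0.45. The median of that list was 0.12, and −0.019 with median centring.

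Of 26 cytochromes P450 of families 1 to 3, 6 rose and 2 fell, and of 16 genes for bile acid synthesis and conjugation 4 rose and 1 fell. That is 30.8% and 31.2% called, near the 26.9% of all genes. Both shares lie below that of the 9410 brighter genes, of which 4633 were called. Of 22 chemokines and NF-kB targets 4 rose and 4 fell. Cxcl2, a neutrophil chemokine gene, rose with every isoform by 1.07 to 2.40. Of 22 ER stress and amino acid response genes 7 rose and 6 fell, of 21 p53 response genes 5 rose (3 without GFP replicate 2) and 8 fell, and of 20 glucose metabolism genes 7 rose and 2 fell. With median centring more members fell and fewer rose in most lists, for example 13 lower and 0 higher for fatty acid and triglyceride synthesis.

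**Figure D5:**
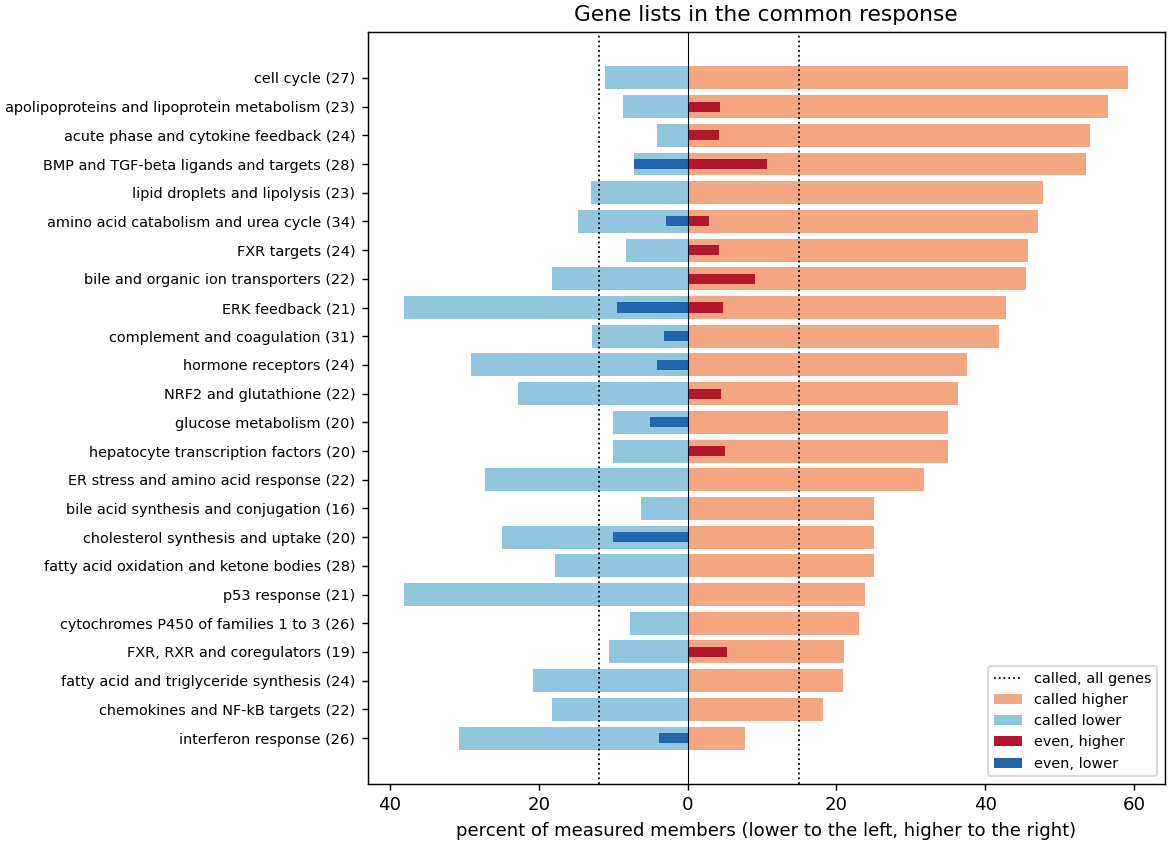
Bars give the percent of the measured members of each gene list (number in brackets) that rose (right) or fell (left) in the common response, and narrow bars those that were even. Dotted lines mark all genes, 15% higher and 11.9% lower. The BMP and TGF-beta list holds 5 even genes of 28, beside 1.79% of all genes, and 16 of the 27 cell cycle genes rose. List members were chosen with earlier results of these data known, and all genes include dim ones. Neither count is therefore evidence of enrichment.

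The arrays carried hepatocyte markers as labelled. The 7 measured ones had GFP means between 9.09 for Hnf4a and 13.1 for Alb, 5 of them rose and 0 fell, and Alb itself had a change of 0.035 (limma adjusted p = 0.462). The mean of the markers per array was 10.8 to 10.9 with GFP and 11.02 to 11.36 with FXR. In bulk RNA fewer cells of a type and less RNA per cell cannot be told apart. Of 10 Kupffer cell markers and of 8 lymphocyte and neutrophil markers 0 rose and 0 fell, with array means of 4.39 to 4.63 with GFP and 4.33 to 4.59 with FXR for the former, and 3.57 to 3.66 and 3.48 to 3.75 for the latter. No detection calls come with the table, and the brightness of the marker lists was not compared.

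Bmp2 belongs to the sinusoidal endothelial marker list as well. Of the 10 markers of that cell type it alone rose, and Oit3 fell by 0.61, while Stab2 (0.15, limma adjusted p = 0.248) and Pecam1 (0.076, adjusted p = 0.636 in limma) did not pass. The array means of that list, Bmp2 included, were 4.96 to 5.03 with GFP and 5.05 to 5.37 with FXR. Of 10 stellate cell and fibroblast markers Reln rose (0.41) and 0 fell, with array means of 4.42 to 4.49 and 4.36 to 4.52. Of 7 cholangiocyte markers Epcam and Sox9 rose and Pkhd1 fell, and the array means were 5.74 to 5.79 and 6.07 to 6.45. The part that a changed mix of cells had in the results was not tested.

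How the 4 groups enter the mean sets how many genes pass. With the 12 isoform arrays taken as 1 group, so that differences between isoforms count as error, 886 genes were called in place of 5056. With the group also as a random block (arrays of 1 group correlated at 0.477) 228 were called. Of the 336 even genes 332 were called in the former fit and 141 in the latter, 85 higher and 56 lower. Of the 24 even genes named by size 23 were called in the latter, all but Acad12, and 5 of the 10 uneven genes. Differences between isoforms are the error of these fits and are also what sorted genes into even and uneven, so that contrast is set by the rule.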

How the data were processed

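Per the submitters' processing notes the arrays were handled with Affymetrix Expression Console 1.1 and PLIER. The sources used here do not give the role of each, the background correction or the normalization. The deposited table holds 1 value per probe set and array for 35556 probe sets, and its log2 scale was inferred from the values, since no header states it. The array annotation gave 1 symbol for 21218 of them, several for 1881 and none for 12457. The probe set with the highest mean over the 15 arrays was kept per gene (18820 genes, 1386 of them with more than 1), with no filter on dim genes. Array medians lay between 4.92 and 5.01, and arrays of a group correlated across genes with r of 0.997 to 0.999.

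A model with 5 group means and an intensity trend was fitted with limma 3.58.1 in R 4.3.3, and the mean of the 4 isoform groups was compared with GFP. Tests were two-sided, and p-values were adjusted over all genes. An F-test on the insert, N-terminus and interaction contrasts asked whether isoforms differed. The script was tested on simulated data. Genes, lists and the shared-response question were chosen with earlier results of these data known. Of 651 distinct genes in 30 lists, 582 were measured, and lists are described by counts, with no set test.

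The text names the 12 largest even genes each way and the 5 largest uneven ones, where isoform and GFP arrays do not overlap, passing over predicted genes. It names all measured FXR targets where a result turns on them, up to 4 genes per other list by adjusted p, and 3 genes on each side of the evenness limit. Other list members that are given a value were picked after their values were seen. Samples were not paired by replicate number, whose meaning no label gives. Alternatives covered scaling, variance model, filters, probe sets, the evenness limit, the weighting of isoforms, a replicate block and leaving out single arrays. RefSeq upstream windows (GRCm38.p6) were searched in Python 3.11.15, and figures were drawn with matplotlib 3.10.9.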

Additional observations from a re-analysis of the deposited data

Results flagged for a closer look

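Effects that differ between isoforms under the same comparison with GFP were common. Of the 5056 genes of the common response 4233 passed the limma F-test for a difference among isoforms, 83.7% against 44.7% of all genes. The 5056 were chosen from the same group means that the F-test compares, so a higher share is partly built in. Against GFP, 2472 of them passed with just 2 isoforms, in 1923 cases FXRα2 and FXRα4, and 553 with just 1. These 2 isoforms also had the most calls over all genes, 33.8% for FXRα4 and 34.3% for FXRα2. The shares were lower for FXRα3 (14.1%) and FXRα1 (12.4%). That pair is therefore favoured by the number of calls, and genes passing with every isoform are limited by the isoforms with fewer. The insert contrast passed for 73.7% of the 5056, against 38.2% of all genes. For the N-terminus contrast the shares were 41% and 20.1%.

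For the named genes that passed it, the difference between the largest and the smallest log2 fold change of the 4 isoforms gives the size. Among uneven genes it was 4.27 for Epcam, 3.26 for Eomes, 2.87 for Abcb11, 2.27 for Slc5a5, 2.23 for Flnc, 1.92 for Nexmif, 1.47 for Morc4, 0.992 for Mboat1, 0.973 for Osgin1 and 0.845 for Lrp5. Among even genes that rose it was 1.34 for Bmp2, 1.17 for Abcb1a, 0.989 for Lhx2, 0.811 for Aldh8a1, 0.703 for Rragd, 0.697 for Mettl7b, 0.643 for Inhbc, 0.614 for Gnai1, 0.603 for Dusp4, 0.572 for Nup62cl and 0.335 for Nqo1. Among even genes that fell it was 0.729 for Fgd3, 0.721 for Dhrs9, 0.659 for Bmp6, 0.604 for Ctsw, 0.491 for Avpr1a, 0.452 for Actc1, 0.427 for Fmo2 and 0.39 for Tnfsf15.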

How the results depend on the processing

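With median centring 9413 genes were called and 7222 of them differed among isoforms, in place of 5056 and 4233. As 1 group of 12 isoform arrays 886 genes were called, and 228 with the group as a random block. By construction fewer isoforms have to pass when the mean leaves one out: without FXRα1 1324 genes passed with every remaining isoform in place of 851, and 680 genes were even, against 586 without FXRα2, 561 without FXRα3, 567 without FXRα4 and 336 with all. A limit of 0.67 or 0.33 gave 106 or 656 even genes, and a fold minimum of 1.5 left 127 even genes and 727 called. Leaving out 1 array at a time gave 4062 to 5287 genes called, 659 to 868 called with every isoform, 284 to 330 even and 3471 to 4424 that differed. The share of called genes that were higher was 55.8%, 17.4% with median centring and 47.2% with quantile normalization. With the replicate number as a block 5821 genes were called, 1088 with every isoform, 395 even and 4982 that differed among isoforms, and no label says that the numbers pair the arrays. Deviations from the group means correlated over 0.1 in 18 of 30 pairs of arrays with the same number (−0.211 to 0.425) and in 10 of 60 pairs with different numbers (−0.42 to 0.315). Of the 336 even genes 336 were also even under the replicate block, 277 with quantile normalization, 278 with centring on the 75th percentile, 208 with median centring, and 263, 262 and 267 without GFP replicate 1, 2 and 3. Of the 24 named even genes, all were called under each scaling and without each GFP array. Genes that had not passed changed sign in some settings, and the cause was not tested. With median centring these were Abcc2 (−0.11, which then passed as lower, limma adjusted p = 0.0347), Fetub (−0.043), Fgb (−0.035), Nr1h4 (−0.00019), Rxra (−0.076) and Scarb1 (−0.073). With quantile normalization Slc51a stood at 0.026. Without FXRα1 in the mean Abcc2 stood at −0.13 (also passed, limma adjusted p = 0.00395) and Slc51a at 0.022. Without FXRα2 Fgb was −0.079, Ppara −0.025 and Scarb1 −0.034. Without FXRα3 Abcc2 was −0.071, Baat 0.018, Insig2 0.086 and Slc51a 0.0012. Without FXRα4 Baat was 0.070 and Fgfr4 0.015. With 1 array left out Baat ranged from −0.13 to 0.050 and Slc51a from −0.059 to 0.076. The number of arrays limits the precision. Small changes depend on the centring chosen, since median centring moves the median gene from −0.016 to −0.16. Quantile normalization gives −0.013 and centring on the 75th percentile −0.027.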
